A study of Mus musculus with 5 samples.

Results

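The 10 genes described here, Adh1, Adh5, Aldh2, Cyp2e1, Cat, Gpx3, Sod3, Hmox1, Mt1 and Mt2, encode enzymes that oxidize ethanol and acetaldehyde and proteins that handle peroxide, superoxide, haem and metals. They were chosen by name, are 10 of the 31053 genes counted, and were all found in the count tables. Their RNA was measured by droplet single-cell RNA sequencing in cells sorted from livers of male Rosa26mTmG;Col1a1-Cre mice on a C57BL/6J background, which was the genotype of every group. In these mice Cre recombinase under the Col1a1 collagen promoter switches a cell from a red to a green reporter, so a cell sorted as Col1a1+ had used that promoter at some time, not necessarily when it was sorted. DEN+WAD animals received the liver carcinogen diethyl nitrosamine (DEN) at 10 mg/kg when 2 weeks old, and from 6 weeks of age were given for 5 months a liquid Western alcohol diet (WAD) with 3.5% ethanol by volume. Control animals received saline at the same age, and chow from the same age for the same time. Sorting by vitamin A fluorescence (VitA), which marks hepatic stellate cells (HSC), and by the green reporter gave VitA+Col1a1+ and VitA-Col1a1+ cells from chow and from DEN+WAD mice, and DEN+WAD livers gave a further library with the label VitA-Col1a1-. Each of the 5 groups was 1 library, and the sources used here do not state how many animals went into it. The carcinogen, the ethanol and the Western diet were given together, so their parts cannot be told apart.

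In hepatocytes, alcohol dehydrogenase 1 (Adh1) and cytochrome P450 2E1 (Cyp2e1) oxidize ethanol to acetaldehyde, and mitochondrial aldehyde dehydrogenase 2 (Aldh2) oxidizes acetaldehyde to acetate. Catalase (Cat) can use hydrogen peroxide to oxidize ethanol, and alcohol dehydrogenase 5 (Adh5) is best known for clearing formaldehyde bound to glutathione. Glutathione peroxidase 3 (Gpx3) and superoxide dismutase 3 (Sod3) are secreted antioxidant enzymes, haem oxygenase 1 (Hmox1) degrades haem, and the metallothioneins Mt1 and Mt2 bind zinc and copper and are induced by metals, glucocorticoids and oxidants.

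Mt1 and Mt2 are neighbours on mouse chromosome 8, and their 250 bases before the RefSeq start are shown because both were higher in DEN+WAD in each gate. In the GRCm38 build, Mt2 (ENSMUSG00000031762) occupies chr8:94172664-94173568 and Mt1 (ENSMUSG00000031765) chr8:94179082-94180327, both on the plus strand and 5513 bases apart. The sequences are from RefSeq on GRCm38.p6, 5′ to 3′ on the plus strand, and capitals mark the core of the metal response element (TGCACNC or TGCGCNC on either strand), to which the zinc-sensing factor Mtf1 binds.
Mt1, chr8:94178839-94179088: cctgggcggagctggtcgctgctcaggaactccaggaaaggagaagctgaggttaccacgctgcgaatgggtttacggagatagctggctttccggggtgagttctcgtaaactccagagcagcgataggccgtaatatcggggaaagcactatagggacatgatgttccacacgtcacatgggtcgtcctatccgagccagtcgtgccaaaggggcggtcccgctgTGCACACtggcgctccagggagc
Mt2, chr8:94172368-94172617: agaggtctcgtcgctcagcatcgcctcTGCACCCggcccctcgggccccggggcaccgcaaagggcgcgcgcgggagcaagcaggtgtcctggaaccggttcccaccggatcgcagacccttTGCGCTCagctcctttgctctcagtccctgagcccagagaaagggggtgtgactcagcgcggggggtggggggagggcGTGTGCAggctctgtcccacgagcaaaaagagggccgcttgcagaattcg
The Mt1 window held 1 match, 23 to 17 bases before the start, and the Mt2 window held 3. Of 32851 RefSeq promoter windows of this length, 21.4% held at least 1 match and 1.26% held at least 3. The Mt2 window also held 1 match to the antioxidant response element core, TGACNNNGC, which 10.2% of all windows held at least once and which the Mt1 window did not hold. Promoter windows were found for 7 of the 10 genes. Among the other matched genes, Adh1 and 1 of the 2 Adh5 windows held 1 metal response element each, and the Cyp2e1, Cat and Gpx3 windows held neither motif. A match is a run of letters and not a shown binding site, and bases after the start were not searched.

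The libraries held 259 to 10481 cells and 6145748 to 149936344 unique molecular identifiers (UMIs), with the smallest total in VitA+Col1a1+ chow. Median UMIs per cell were 24077 and 22208.5 in the chow libraries against 13232 and 16696 in the matching DEN+WAD libraries. Levels are given as UMIs per 1000000 of a library's UMIs (CPM), with exact Poisson 95% intervals. All intervals cover counting error only, since there were no replicate libraries, and no test between groups could be made. Between 2 and 40 cell barcodes per library also occurred in another library. The library labelled VitA-Col1a1- went against its label, with Col1a1 at 1062 CPM, above the 958 CPM of VitA-Col1a1+ DEN+WAD, and it is used here only for levels by cell class and not for any contrast of conditions. Levels per cell depend on length and capture of each transcript, so no gene is ranked against another.

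Among the ethanol-oxidizing genes, Adh1 was low in the sorted Col1a1+ cells, Aldh2 was abundant in them, and Cyp2e1 was far higher in the VitA- than in the VitA+ gate. Adh1 (ENSMUSG00000074207, chr3:138260991-138290698, plus strand) had 0 UMIs in VitA+Col1a1+ chow, where the floor of 3 UMIs is 0.488 CPM and the Poisson upper bound 0.600 CPM. It was at 0.287 CPM in the VitA+ DEN+WAD cells, at 4.60 and 5.46 CPM in the VitA- chow and DEN+WAD cells, and at 20.2 CPM in the library labelled VitA-Col1a1-. The summed level of 14 hepatocyte markers, none of them among the 10 genes, was 126 and 249 CPM in the VitA+ chow and DEN+WAD libraries, 202 and 895 in the VitA- ones and 8524 in the library labelled VitA-Col1a1-, and its part in the Adh1 levels was not tested. In mesenchymal cells, defined below, only 1 of the 14 passed 10 CPM in each VitA+ library, at sums of 103 and 100 CPM. Only 2 passed in each VitA-Col1a1+ library, at sums of 180 and 231 CPM, so these sums rest on few genes. In the annotation an antisense gene, Gm16559, overlaps Adh1, and whether counting separated strands is not given in the sources used here.

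Adh5 (ENSMUSG00000028138, chr3:138443093-138455499, plus strand) was even across the libraries, from 54.4 CPM in VitA-Col1a1+ chow to 70.4 CPM in the library labelled VitA-Col1a1-. Its levels were 60.7 and 70.2 CPM in VitA+ chow and DEN+WAD, and 63.6 in VitA- DEN+WAD. Aldh2 (ENSMUSG00000029455, chr5:121566027-121593824, minus strand) was at 996 CPM in VitA+ chow and 961 in VitA+ DEN+WAD, at 638 and 696 in the matching VitA- libraries and at 349 in the library labelled VitA-Col1a1-. The intervals of all 5 Aldh2 levels were apart, with both VitA+ libraries above both VitA- libraries.

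Cyp2e1 (ENSMUSG00000025479, chr7:140763739-140774987, plus strand) was at 6.83 CPM (4.93 to 9.24, 42 UMIs) in VitA+ chow and 2.94 (2.67 to 3.23) in VitA+ DEN+WAD. In the VitA- gate it was at 139 CPM (133 to 145) in chow and 59.0 (56.8 to 61.2) in DEN+WAD, and it was at 36.0 in the library labelled VitA-Col1a1-. The chow library was the higher of the pair in each gate. Cat (ENSMUSG00000027187, chr2:103453849-103485160, minus strand), the peroxisomal enzyme, ranged from 49.9 to 56.8 CPM in the 4 Col1a1+ libraries, with overlapping intervals between chow and DEN+WAD in each gate, and was at 80.3 CPM in the library labelled VitA-Col1a1-.

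Of the secreted enzymes, Gpx3 (ENSMUSG00000018339, chr11:54902453-54910377, plus strand) was low in VitA+ cells, at 18.2 CPM in chow and 15.3 in DEN+WAD. It was at 1039 CPM in VitA- chow, 477 in VitA- DEN+WAD and 119 in the library labelled VitA-Col1a1-. Sod3 (ENSMUSG00000072941, chr5:52363791-52371418, plus strand) had the opposite order, at 2480 and 3344 CPM in VitA+ chow and DEN+WAD and at 984 and 1545 in the VitA- pair, with 750 in the library labelled VitA-Col1a1-. Sod3 was higher in the DEN+WAD library of both pairs.

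Hmox1 (ENSMUSG00000005413, chr8:75093621-75100589, plus strand) was at 28.3 and 31.8 CPM in VitA+ chow and DEN+WAD, at 40.8 and 46.1 in the VitA- pair and at 228 in the library labelled VitA-Col1a1-. Mt1 was at 630 CPM in VitA+ chow and 936 in DEN+WAD, at 375 and 782 in the VitA- pair and at 625 in the library labelled VitA-Col1a1-. Mt2 was at 82.2 and 198 CPM in the VitA+ pair, 46.7 and 151 in the VitA- pair and 164 in the library labelled VitA-Col1a1-. For both metallothioneins the chow intervals lay below the DEN+WAD intervals in each gate. An antisense gene, Gm45774, overlaps Mt2 in the annotation.

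**Figure D1:**
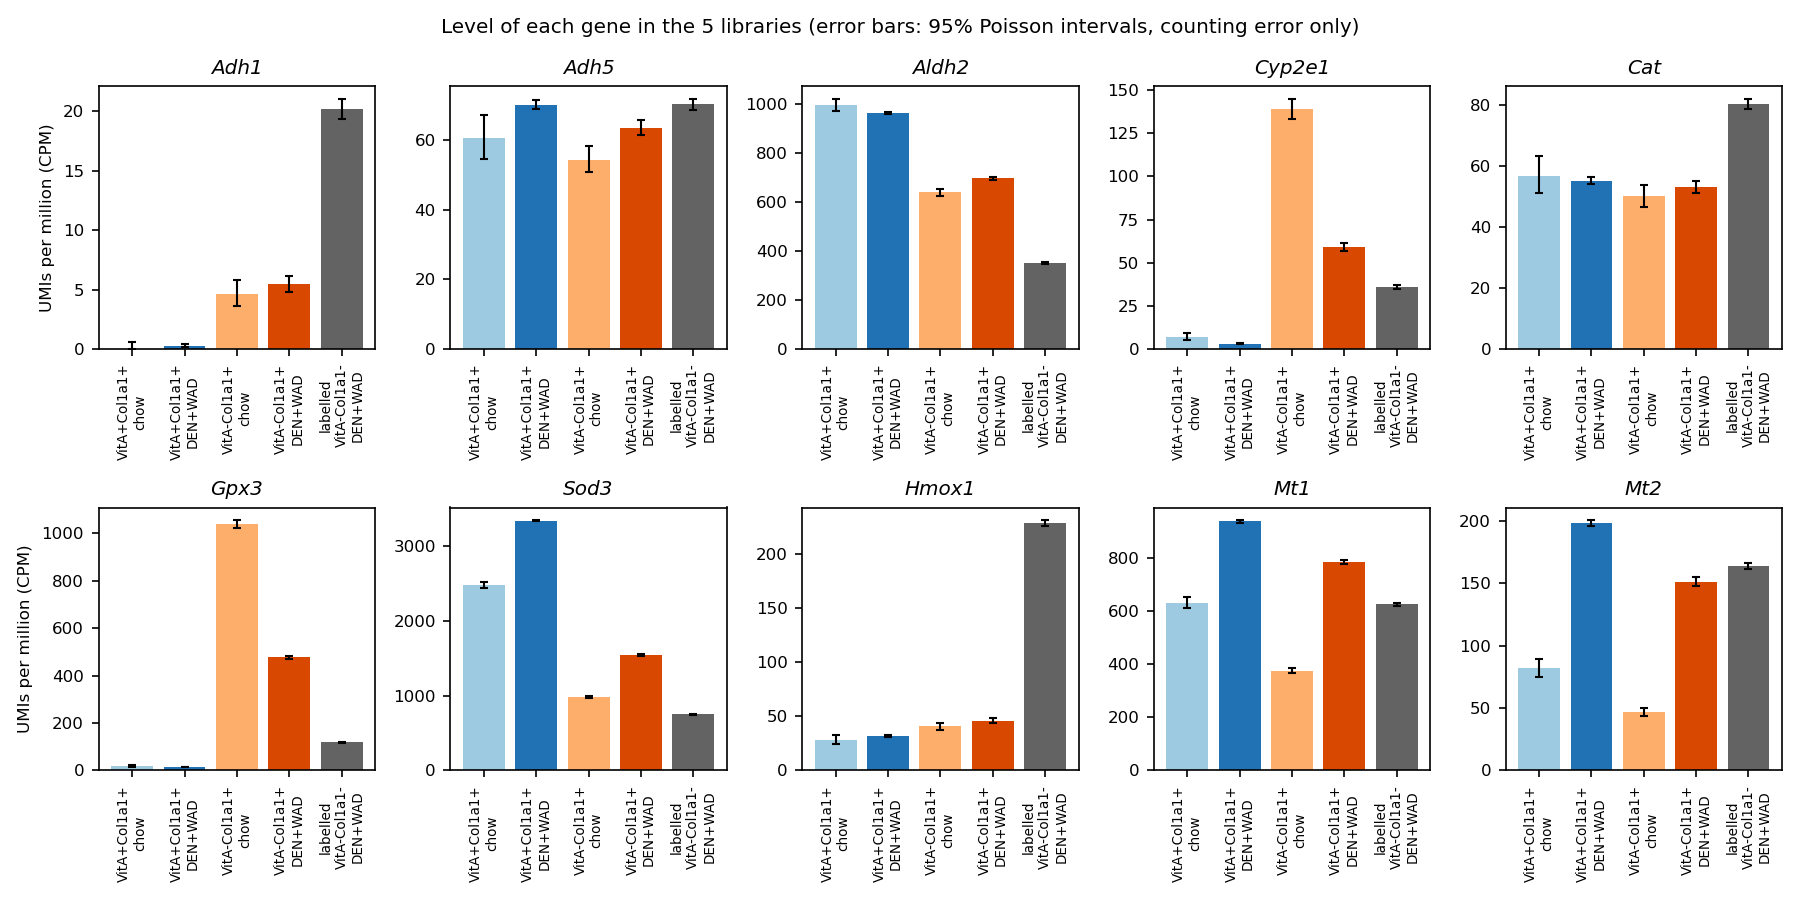
Level of each of the 10 genes (vertical axis, UMIs per 1000000, a separate linear scale from 0 for each gene) in the 5 libraries, with 95% Poisson intervals. Gpx3 and Cyp2e1 stand at 1039 and 139 CPM in VitA-Col1a1+ chow, Sod3 at 3344 CPM in VitA+Col1a1+ DEN+WAD, and Adh1 and Hmox1 at 20.2 and 228 CPM in the library labelled VitA-Col1a1-.

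The comparison of DEN+WAD with chow asks how these genes stood in each sorted fraction after the carcinogen and the ethanol diet. In both gates Mt2 was more than 2-fold higher and Cyp2e1 more than 2-fold lower, while Mt1 and Gpx3 passed 2-fold only in the VitA- gate. In the VitA+ gate 9 of the 10 genes reached 5 CPM in 1 of the libraries compared, and of these 1 was at least 2-fold higher, against 1.41% of the 9907 genes that passed the same filter, and 1 was at least 2-fold lower, against 3.94%. The lower one, Cyp2e1, passed the filter only through chow, at 6.83 CPM from 42 UMIs against 2.94 CPM in DEN+WAD. With a filter at 10 CPM the lower count was 0. In the VitA- gate all 10 passed, 2 were at least 2-fold higher against 5.04% of 10583 genes, and 2 were at least 2-fold lower against 5.54%. The median log2 ratio of the genes was 0.17 in the VitA+ gate and 0.20 in the VitA- gate, against -0.08 and -0.03 over all genes tested. Because the genes were chosen with results of these data known, these counts are a description.

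Mt2 was 2.41-fold higher (2.21 to 2.64) in VitA+ DEN+WAD than in chow and 3.24-fold higher (2.999 to 3.51) in the VitA- gate. Mt1 was 1.49-fold higher (1.44 to 1.53) and 2.09-fold higher (2.03 to 2.15). The log2 ratio was larger in the VitA- gate by 0.43 (0.26 to 0.59) for Mt2 and by 0.49 (0.43 to 0.55) for Mt1. Sod3 was 1.35-fold higher (1.33 to 1.37) in the VitA+ gate and 1.57-fold higher (1.54 to 1.60) in the VitA- gate.

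Cyp2e1 was 2.32-fold lower in the VitA+ gate, a ratio of 0.430 (0.313 to 0.606), and 2.36-fold lower in the VitA- gate, a ratio of 0.424 (0.4005 to 0.449). These log2 ratios differed by -0.02 (-0.49 to 0.44). Gpx3 was 2.18-fold lower in the VitA- gate, a ratio of 0.459 (0.450 to 0.469). In the VitA+ gate the Gpx3 ratio was 0.842 (0.696 to 1.03), with the difference between gates at -0.87 (-1.15 to -0.60) on the log2 scale.

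Adh5 was 1.16-fold higher (1.04 to 1.29) in the VitA+ gate and 1.17-fold higher (1.08 to 1.26) in the VitA- gate. Hmox1 ratios were 1.12 (0.965 to 1.31) and 1.13 (1.03 to 1.24), and Cat ratios 0.970 (0.872 to 1.08) and 1.06 (0.978 to 1.15). Aldh2 ratios were 0.965 (0.941 to 0.991) in the VitA+ gate and 1.09 (1.07 to 1.12) in the VitA- gate. In the VitA+ gate the Aldh2 log2 ratio was -0.051, and it became 0.14 with TMM scaling. The Adh1 ratio in the VitA- gate was 1.19 (0.907 to 1.57), and no fold is given in the VitA+ gate, where chow held no UMI. Without cells of over 3 times the median UMIs, the Adh1 log2 ratio in the VitA- gate turned from 0.25 to -0.44.

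**Figure D2:**
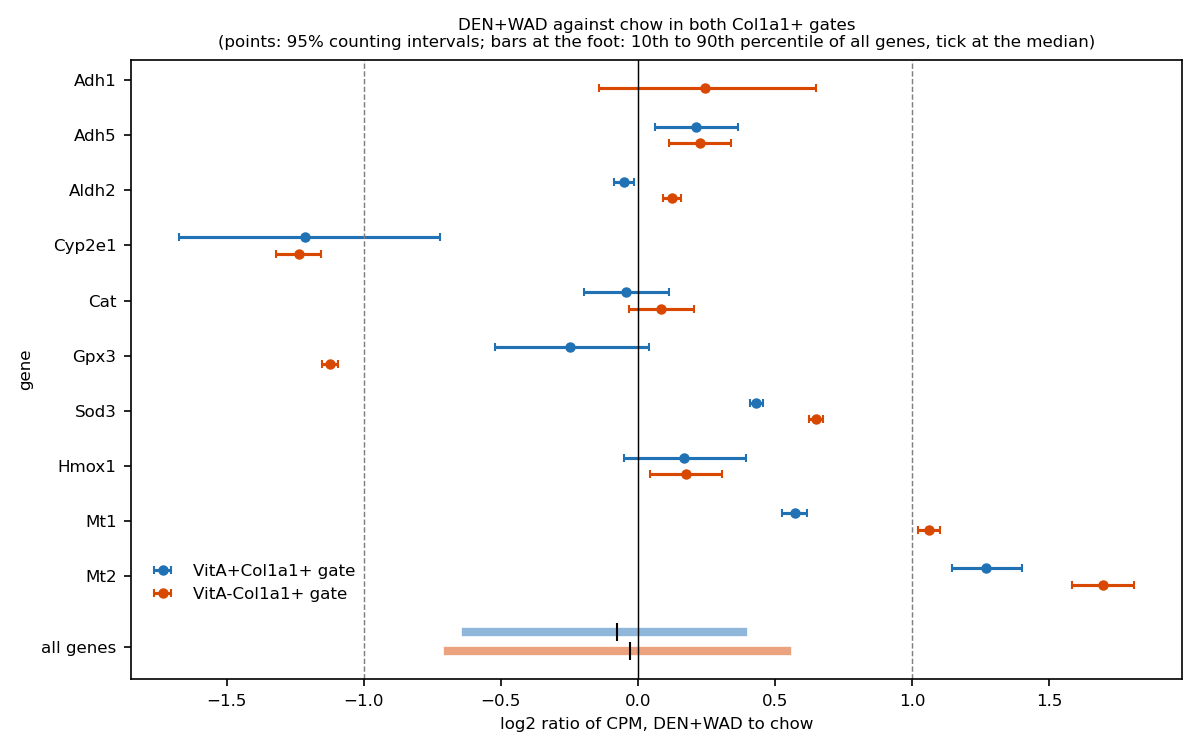
Log2 ratio of CPM in DEN+WAD to chow (horizontal axis) for each gene in both Col1a1+ gates, with 95% counting intervals, dashed lines at 2-fold, and bars at the foot for the 10th to 90th percentile of all genes with a tick at their median. Mt2 lies at 1.27 and 1.70, and Cyp2e1 at -1.22 and -1.24, outside those bars in both gates. Adh1 is drawn for the VitA- gate alone.

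The mesenchymal cells, defined by Dcn, Col3a1 and Colec11 at a summed 20 or more per 10000 UMIs, made up 90.7% and 96.8% of the VitA+ chow and DEN+WAD libraries, 89.5% and 77.4% of the VitA- ones and 36.4% of the library labelled VitA-Col1a1-. In these cells alone Cyp2e1 was at 7.32 CPM in VitA+ chow, 2.98 in VitA+ DEN+WAD, 150 in VitA- chow, 70.0 in VitA- DEN+WAD and 61.2 in the library labelled VitA-Col1a1-. Albumin (Alb), the main hepatocyte transcript, was at 1.03 CPM (14 UMIs) in the VitA- chow mesenchymal cells that held 2049 Cyp2e1 UMIs. The Cyp2e1 ratio in mesenchymal cells was 0.466 (0.440 to 0.494) in the VitA- gate and 0.407 (0.295 to 0.576) in the VitA+ gate. Gpx3 in the same cells stood at 1103 CPM in VitA- chow and 548 in VitA- DEN+WAD, a 2.01-fold difference, and Mt2 at 44.1 and 148 CPM, a 3.36-fold one. Adh1 was at 4.69 CPM in VitA- chow and 3.54 in VitA- DEN+WAD mesenchymal cells, with a ratio of 0.753 (0.555 to 1.03).

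The makeup of the VitA- mesenchymal cells differed between chow and DEN+WAD. The summed level of 10 stellate markers, all of them over 10 CPM in both, was 5513 CPM in chow and 12689 in DEN+WAD. Portal fibroblast markers, 6 of 7 over 10 CPM in both, summed to 3031 and 1606, and smooth muscle markers, 4 of 4 over 10 CPM in chow and 3 of 4 in DEN+WAD, to 4312 and 2631. The part of this makeup in the ratios was not tested. The cells were also read by UMIs of Lrat, the retinol-esterifying enzyme of HSC, and of the portal fibroblast genes Thy1 and Fbln2. Cells with Lrat and neither of the others numbered 283 in chow and 1536 in DEN+WAD, and cells with Thy1 or Fbln2 and no Lrat numbered 73 and 126. Presence was called at full depth, which was greater in chow, and the contrast within these subsets was added after seeing the data.

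In the cells with Lrat alone, Cyp2e1 was at 223 CPM in chow and 60.5 in DEN+WAD, a 3.68-fold difference. In cells with Thy1 or Fbln2 and no Lrat it was at 116 and 108, a ratio of 0.929 with an upper bound of 1.12. In the 183 chow and 227 DEN+WAD cells with Lrat and also Thy1 or Fbln2, Cyp2e1 was at 75.6 and 80.8 CPM. In cells with none of the 3 genes it was at 106 and 97.1. Gpx3 in the Lrat cells was at 885 and 298 CPM, a 2.97-fold difference, whereas in the cells with Thy1 or Fbln2 and no Lrat it was at 1293 and 1267. In cells with Lrat and also Thy1 or Fbln2, Gpx3 was at 1325 CPM in chow and 727 in DEN+WAD. In mesenchymal cells with none of the 3 genes, 59 in chow and 224 in DEN+WAD, Gpx3 was higher in DEN+WAD, at 1641 against 1108 CPM.

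When cells were first thinned to 2000 UMIs and then called, Cyp2e1 in the Lrat cells was at 186 and 47.0 CPM, and Gpx3 at 879 and 140. In the thinned cells with Thy1 or Fbln2 and no Lrat, Gpx3 was at 1811 CPM in chow and 1104 in DEN+WAD, and Cyp2e1, with 9 and 26 UMIs, at 84.9 and 194. The near-equal levels in this subset at full depth thus did not hold after thinning, and the counts are small.

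The metallothioneins were higher in DEN+WAD in each of the 4 subsets. Mt2 was at 36.9 CPM in chow and 154 in DEN+WAD in the Lrat cells, at 69.1 and 134 in the cells with Thy1 or Fbln2 and no Lrat, at 48.4 and 117 in cells with both kinds of marker and at 29.4 and 168 in cells with none. Mt1 stood at 331 and 783 CPM in the Lrat cells and at 503 and 729 in the cells with Thy1 or Fbln2 and no Lrat. Sod3 was at 1124 and 2073 CPM in the Lrat cells and at 950 and 1053 in those with Thy1 or Fbln2 and no Lrat. Hmox1 was lower in the DEN+WAD Lrat cells, at 36.0 against 43.1 CPM, though not when called at 2000 UMIs, at 31.7 against 30.2, and it was higher in the cells with Thy1 or Fbln2 and no Lrat, at 47.6 against 27.4.

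**Figure D3:**
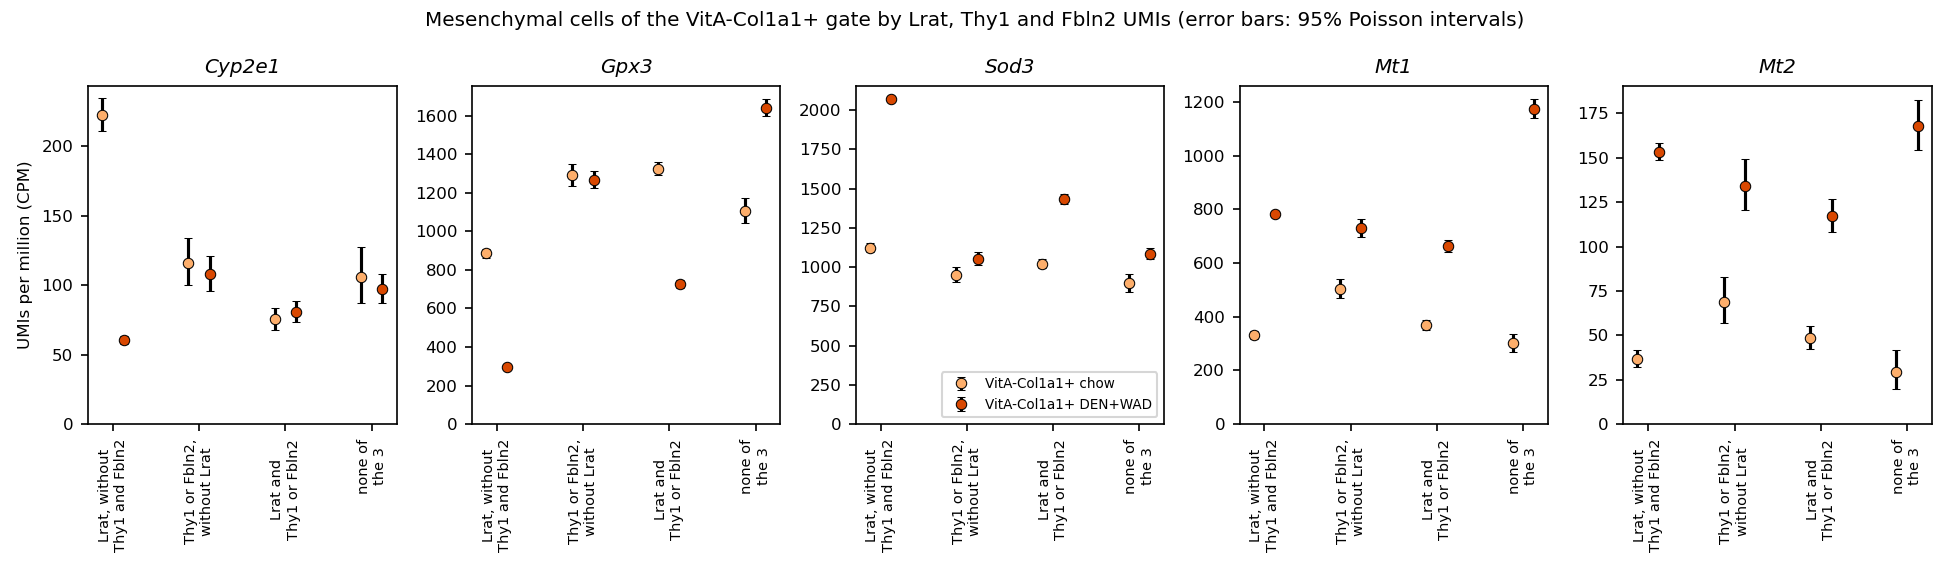
Levels of 5 of the genes (vertical axis, UMIs per 1000000, separate scales from 0) in mesenchymal cells of the VitA-Col1a1+ gate, divided by UMIs of Lrat, Thy1 and Fbln2 at full depth, with 95% Poisson intervals. Mt2 is higher in DEN+WAD in all 4 subsets, while Cyp2e1 is apart in the cells with Lrat alone (223 and 60.5 CPM) and Gpx3 is higher in DEN+WAD in the cells with none of the 3 genes (1641 and 1108 CPM).

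The share of mesenchymal cells with a UMI was read after thinning each cell to 2000 UMIs, with exact binomial intervals. Gpx3 was found in 74.4% (70.7 to 77.9) of VitA- chow cells and 35.3% (33.2 to 37.4) of VitA- DEN+WAD cells, and in 91.5% and 56.1% at full depth. In Pecam1-positive cells of the same libraries, thinned alike, Gpx3 was found in 2.86% of 35 cells and 4.84% of 434, with full-depth medians of 17320 and 13623 UMIs. Summed over those cells at full depth, Gpx3 was higher in DEN+WAD, at 72.2 CPM against 11.0 in chow, opposite to the mesenchymal cells. The chow level rested on 7 UMIs. The intervals of the thinned shares overlapped, at 0.0723% to 14.9% in chow and 3.02% to 7.30% in DEN+WAD. Cyp2e1 was found in 16.9% (14.0 to 20.2) of VitA- chow mesenchymal cells and 7.63% (6.52 to 8.86) of VitA- DEN+WAD ones, against 0 of 35 Pecam1-positive cells in chow, with an upper bound of 10.0%, and 0.461% of 434 in DEN+WAD, and at full depth in 39.97% and 18.6% of the mesenchymal cells. Mt2 was found in 6.78% and 15.3% of VitA- chow and DEN+WAD mesenchymal cells, and in 13.8% and 22.2% of the VitA+ ones. In Pecam1-positive cells of the VitA- gate it was found in 8.57% (1.80 to 23.1) of 35 in chow and 22.8% (18.9 to 27.1) of 434 in DEN+WAD. Sod3 was found in 97.4% and 98.6% of VitA+ chow and DEN+WAD mesenchymal cells.

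Within a library the metallothioneins and Cyp2e1 were unevenly spread over cells. At 2000 UMIs the 10% of mesenchymal cells with the most Mt1 held 46.1% of its UMIs in VitA+ chow, 45.0% in VitA+ DEN+WAD, 54.0% in VitA- chow and 55.9% in VitA- DEN+WAD. For Aldh2 the same share ran from 23.8% to 29.5% in these libraries. Mean UMIs per cell were 2.07, 1.97, 1.38 and 1.60 for Aldh2 and 1.28, 1.89, 0.744 and 1.67 for Mt1 in the same order of libraries, and such shares depend on the mean. In VitA- chow, 10% of cells held 73.9% of Cyp2e1 UMIs, though at a mean of 0.266 UMIs per cell such shares partly reflect sparse counts. Mt1 and Mt2 had Spearman correlations over cells of 0.24 to 0.36 in the 3 DEN+WAD libraries, 0.26 in VitA- chow and 0.13 in VitA+ chow, which at this sparsity are descriptions alone.

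Levels by cell class came from the library labelled VitA-Col1a1-, which held 3593 mesenchymal, 1869 Pecam1-positive, 866 C1qa-positive and 300 Alb-rich cells, after 2564 cells meeting more than 1 rule were left out. Pecam1 marks endothelial cells and C1qa macrophages, and a cell needed 1 UMI of either, while Alb-rich cells had Alb at 100 or more per 10000 UMIs. The classes carried their own markers. Endothelial markers summed to 7413 CPM in Pecam1-positive cells, macrophage markers to 16857 in C1qa-positive cells and hepatocyte markers to 147652 in Alb-rich cells. The Alb-rich cells had a median of 1524.5 UMIs, far under the 9105.5 of the library. Hepatocyte markers also summed to 764, 1261 and 2182 CPM in mesenchymal, Pecam1-positive and C1qa-positive cells.

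Adh1, Adh5, Aldh2 and Cat were highest in Alb-rich cells and next in C1qa-positive cells. Adh1 was at 343 CPM (323 to 364) in Alb-rich cells, 8.94 in C1qa-positive, 2.94 in Pecam1-positive and 1.97 in mesenchymal cells. Per 1000 Alb UMIs there were 8.47 Adh1 UMIs in Alb-rich, 9.38 in mesenchymal, 7.22 in Pecam1-positive and 21.6 in C1qa-positive cells. In mesenchymal cells of the VitA-Col1a1+ gate the ratio was far higher, with 64 Adh1 against 14 Alb UMIs in chow and 135 against 242 in DEN+WAD. Within that DEN+WAD library Adh1 was at 12.2 CPM in cells with Thy1 or Fbln2 and no Lrat and at 1.32 in cells with Lrat alone, 9.24-fold apart (5.54 to 15.4). In VitA- chow these subsets were at 11.8 and 1.92 CPM. The order did not hold in the library labelled VitA-Col1a1-, at 1.58 and 2.04 CPM from 2 and 53 UMIs. The ratio there was 0.776 (0.0915 to 2.94). The C1qa-positive level was 2.56 CPM when 2 UMIs of Pecam1 or C1qa were required. Adh5 was at 209 CPM in Alb-rich cells against 48.7 to 69.8 in the other classes, and Aldh2 at 617 against 259 to 374. Cat, at 317 CPM in Alb-rich and 141 in C1qa-positive cells, was at 68.4 in Pecam1-positive and 41.9 in mesenchymal cells.

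Cyp2e1 was at 61.2 CPM (58.7 to 63.7) in mesenchymal and 56.8 (48.8 to 65.7) in Alb-rich cells, which did not differ beyond counting error, and at 7.82 and 3.04 in Pecam1-positive and C1qa-positive cells. Per 1000 Alb UMIs it stood at 292 UMIs in mesenchymal cells against 1.40 in Alb-rich cells. Taken as the mean over cells in place of summed UMIs, Cyp2e1 in Alb-rich cells was at 320 CPM, so the order of these classes depended on the weighting. Of the Alb-rich cells, the 54 with Cyp2f2, a cytochrome known from the periportal zone, above the median had Cyp2e1 at 21.2 CPM and the other 246 at 69.8. Adh1 had the reverse order there, at 512 and 281 CPM. The Cyp2e1 levels rested on 18 and 161 UMIs. The uneven split means that most of these cells held no Cyp2f2 UMI. At a median of 1524.5 UMIs a cell can miss it, so the split is not a reading of zones.

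Sod3 and Gpx3 were highest in mesenchymal cells. Sod3 was at 1417 CPM there, 57.0-fold (51.5 to 63.3) above the 24.9 CPM of Pecam1-positive cells, and at 11.6 and 11.4 in C1qa-positive and Alb-rich cells. With cells of more than 1 class kept in every class they met, Sod3 was at 475 CPM in C1qa-positive and 248 in Pecam1-positive cells, so the size of the difference and the second class depended on that choice. Gpx3 was at 217 CPM in mesenchymal cells, 27.5 in C1qa-positive, 12.8 in Pecam1-positive and 4.44 in Alb-rich cells, and with those cells kept it was at 84.6, 39.4 and 9.61 in the last 3. Among mesenchymal cells Gpx3 was at 499 CPM in those with Thy1 or Fbln2 and no Lrat and at 168 in those with Lrat alone, and Sod3 at 474 and 1510. The same order held in VitA- DEN+WAD, where Gpx3 was 4.25-fold (4.08 to 4.43) higher in the cells with Thy1 or Fbln2 and no Lrat.

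Hmox1 was at 910 CPM in C1qa-positive cells, 10.7-fold (10.1 to 11.4) above the 84.9 CPM of Pecam1-positive cells, with 32.3 in mesenchymal and 12.4 in Alb-rich cells. C1qa-positive cells with Clec4f, a Kupffer cell lectin, had Hmox1 at 1042 CPM and those without at 700. Haemoglobin transcripts, 4 of 4 over 10 CPM, summed to 853 CPM in C1qa-positive, 1039 in Pecam1-positive and 281 in mesenchymal cells, and their part in the Hmox1 levels was not tested. Kept in every class they met, cells of more than 1 class brought Hmox1 in C1qa-positive cells to 525 CPM and in Pecam1-positive cells to 327.

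Mt1 was at 809 CPM in mesenchymal, 692 in Alb-rich, 534 in Pecam1-positive and 221 in C1qa-positive cells, and Mt2 at 219, 198, 142 and 25.3. With cells of more than 1 class kept, Mt1 and Mt2 in C1qa-positive cells were at 489 and 116 CPM. Pecam1-positive cells with Stab2, a sinusoidal endothelial receptor, had Mt1 at 573 CPM and Mt2 at 153, against 219 and 47.7 in those without. In Pecam1-positive cells of the VitA-Col1a1+ gate, 38 in chow and 437 in DEN+WAD, Mt1 was at 605 and 577 CPM, a ratio of 0.955 (0.860 to 1.06), where mesenchymal cells of the same libraries had 2.20 (2.14 to 2.27). Mt2 was 1.47-fold higher (1.14 to 1.94) in DEN+WAD in those cells. Gpx3 was 6.57-fold higher (3.16 to 16.4) and Sod3 3.96-fold higher (1.79 to 10.9) there, from 7 and 6 UMIs in chow. Stellate markers in these cells, 3 of 10 over 10 CPM in chow and 7 of 10 in DEN+WAD, summed to 231 and 666 CPM, and their part was not tested.

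**Figure D4:**
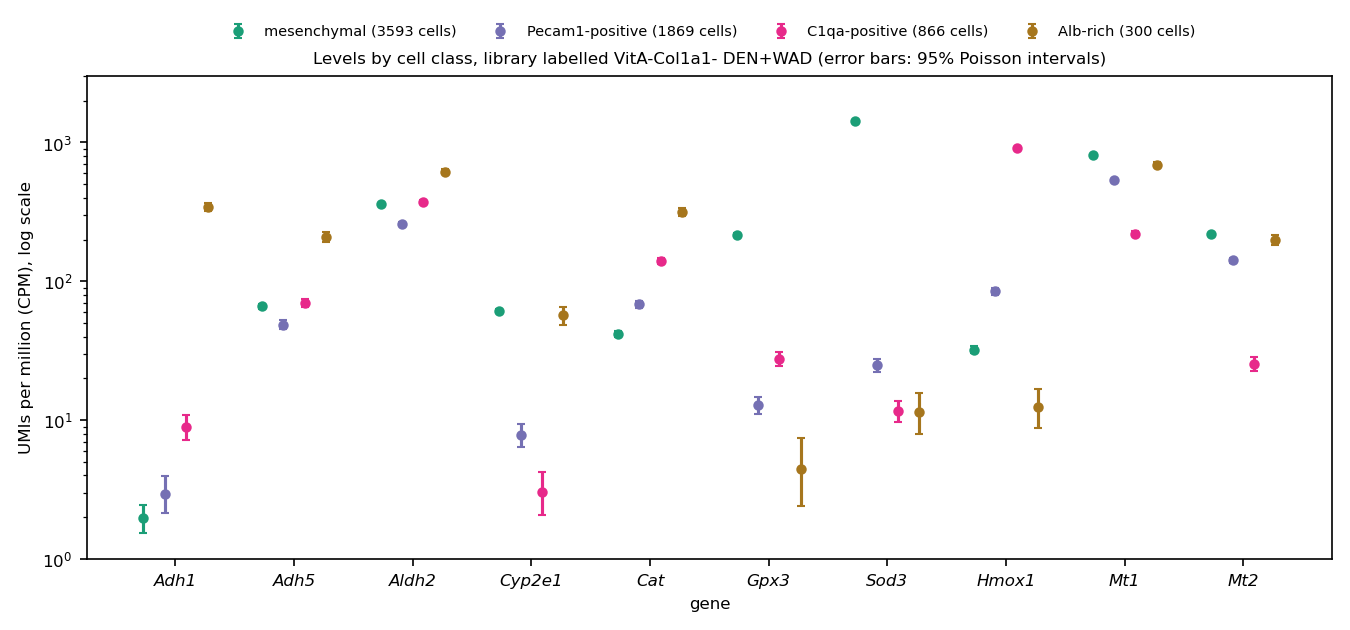
Level of each gene (vertical axis, UMIs per 1000000 on a log scale) in 4 cell classes of the library labelled VitA-Col1a1-, with 95% Poisson intervals. Adh1, Adh5, Aldh2 and Cat are highest in Alb-rich cells, Hmox1 in C1qa-positive cells at 910 CPM and Sod3 in mesenchymal cells at 1417 CPM. Cyp2e1 intervals overlap between mesenchymal and Alb-rich cells.

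Genes with the most similar pattern were ranked by Pearson correlation of log2(CPM + 1) over 10 units of class and library with at least 50 cells, among 9268 genes. The units share libraries and depth, so the values are descriptions. Sod3 was most like Dcn (0.999), which helped define the mesenchymal class, then Srpx2 and Ednra. Adh1 was most like Cbs, Kif21a and Proser2, Adh5 like Hagh, Ndufs6 and Nit2, and Aldh2 like Sqor, Acp6 and Il15ra. Cyp2e1 followed Clmp, Shroom3 and Osbpl1a, Cat followed Acsl1, Sema4a and Cluh, and Gpx3 followed Slc1a5, Spon1 and Col4a4. Hmox1 was most like Rcbtb2, Capzb and Grb2, Mt1 like Tmem59, Pdia5 and Alg14, and Mt2 like Mt1 (0.888), Srpr and Gm4951.

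Around the 10 genes, 90 others of alcohol and aldehyde metabolism, peroxide and superoxide removal, glutathione, haem, iron and metal handling and oxidant production were read the same way. In the VitA+ gate 66 passed 5 CPM, of which 1 was at least 2-fold higher and 2 were at least 2-fold lower, against 1.41% and 3.94% of all genes, and their median log2 ratio was 0.20. In the VitA- gate 69 passed, 4 of them at least 2-fold higher and 1 at least 2-fold lower, against 5.04% and 5.54% of all genes, with a median of -0.05. These shares are near those of all genes in both gates, apart from the lower one in the VitA- gate, which rests on 1 gene. Of the 22 superoxide, peroxide and thioredoxin genes tested, 0 passed 2-fold in either gate, beside 1.41% to 5.54% of all genes in a gate and direction, shares at which few of 22 genes would pass. Of the 12 alcohol and aldehyde dehydrogenase and acetate genes tested in each gate, only Aldh1a3, a retinaldehyde dehydrogenase, passed 2-fold. It did so in the VitA- gate alone, at 5.60 CPM in chow and 24.6 in DEN+WAD. In the VitA+ gate it was at 47.3 and 44.3 CPM.

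Gstp1, a glutathione transferase, had opposite ratios in the gates. It was at 92.7 CPM in VitA+ chow and 18.4 in DEN+WAD, 5.05-fold lower, and at 33.1 and 120 CPM in the VitA- pair, 3.64-fold higher (3.32 to 3.999). Close copies of Gstp1 exist in the mouse genome, so its counts are uncertain. The zinc importer Slc39a8 was at 11.7 and 4.92 CPM in VitA+ chow and DEN+WAD and at 13.2 and 30.5 in the VitA- pair. In the VitA+ gate the microsomal glutathione transferase Mgst1 was at 8.30 and 20.0 CPM, Aldh3b1 at 5.21 and 9.42, Gstm5 at 35.1 and 55.8, and the zinc exporter Slc30a1 at 11.7 and 6.85. The lowest ratios in the VitA- gate were those of Gsta3, at 34.1 and 16.6 CPM, the oxidase Nox4, at 16.5 and 8.52, and Acss3, at 8.07 and 4.18. Gsta4, a further gene past 2-fold there, was at 22.7 and 50.3 CPM.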

How the data were processed

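The authors sequenced 5 droplet single-cell libraries from sorted liver cells (10x Genomics; the labels name the 3' kit as both v3.1 and v2), aligned the reads to mm10 and counted UMIs with Cell Ranger. Version 3.1.0 stands in the submitters' processing notes and in the file headers of all Col1a1+ libraries, whereas 6.1.2 stands in the header of the remaining library. The authors deposited whole-number UMI counts for each gene in each cell, without normalization. All deposited barcodes, the smallest with 500 UMIs, were used as cells, and no doublet caller was run. Cells meeting more than 1 class rule were left out of all classes.

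UMIs were summed per library or class and scaled to 1000000. Ratios carry conditional binomial 95% intervals and shares Clopper-Pearson ones, all for counting error only. A count of 0 was set to 3 UMIs. The ratio and its interval were tested on simulated data, pooled over 50 draws after a single draw of 50 genes had covered fewer than required. Genes counted as 2-fold needed 5 CPM in 1 of the 2 libraries compared. For shares, cells were thinned to 2000 UMIs, leaving out 4, 172, 21, 106 and 1439 cells of VitA+ chow, VitA+ DEN+WAD, VitA- chow, VitA- DEN+WAD and the library labelled VitA-Col1a1-. TMM and RLE scaling used edgeR 4.0.16 (R 4.3.3), and no count model was fitted. Other steps used Python 3.11.15, numpy 2.4.6, scipy 1.17.1, pandas 2.3.3 and matplotlib 3.10.9, with random seed 7. Gene positions are from GENCODE M21 on GRCm38, the assembly called mm10, in which 30934 of 31053 identifiers were found.

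The genes, lists and rules were chosen with earlier results of these data known. All 10 genes are named. Of the 90 pathway genes, the 3 highest and 3 lowest log2 ratios per gate and those past 2-fold at 100 CPM are named, and Gsta4 was named after its values were seen. The 3 genes most like each member are also named.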

Additional observations from a re-analysis of the deposited data

Results flagged for a closer look

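The Aldh2 ratio of DEN+WAD to chow pointed opposite ways in the 2 Col1a1+ gates, at -0.051 (-0.088 to -0.014) on the log2 scale for VitA+ cells and 0.12 (0.091 to 0.16) for VitA- cells, each counting interval clear of 0. With 1 library per group the difference between gates was not tested against replicates. The VitA+ value turned to 0.14 with TMM factors and 0.077 with RLE factors. Cat also had opposite signs, at -0.044 and 0.086, but both intervals included 0.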

How the results depend on the processing

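Scaling by TMM or RLE factors moved the median log2 ratio of all genes in the VitA+ gate from -0.077 to 0.12 and 0.056, and that of the 9 genes tested there from 0.17 to 0.36 and 0.30. These medians stayed within the counting bounds, a limit chosen after the values were seen. It turned the Aldh2 log2 ratio there to 0.14 and 0.077, and the counts past 2-fold stayed within 1.5 times. With a filter at 10 CPM, Cyp2e1 was no longer counted in the VitA+ gate, leaving 0 of the genes at least 2-fold lower. Among VitA- mesenchymal cells with Lrat alone, or with Thy1 or Fbln2 and no Lrat, 3 ratios turned. This contrast was added after seeing the data, and only ratios whose gate interval was clear of 0 were counted. Hmox1 was at -0.26 in cells with Lrat alone, and Adh5 at -0.084 in such cells called at 2000 UMIs. Cyp2e1 was at 1.19 in cells with Thy1 or Fbln2 and no Lrat called at 2000 UMIs. The remaining subsets were not among these alternatives, and ratios turned there too. Gpx3 was at 0.57 and Adh5 at -0.011 in cells with none of the 3 genes. Cyp2e1 was at 0.097 and Aldh2 at -0.14 in cells with both kinds of marker. The cause was not tested. Of 189 alternative values of the members' log2 ratios, 123 stayed within the counting interval of the reported value, 61 left it with the same direction or from an interval that included 0, and 5 reversed. Of 640 alternative class levels, 526 stayed within theirs. Cyp2e1 was highest in Alb-rich cells under 5 of the 8 alternatives, so the classes with the most members went from 5 and 4 to 4 and 5. Of 100 shares at other depths, 93 moved.

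No replicate was left out and no paired analysis was possible because each group was 1 library, so the spread between animals or preparations is unknown. Depth limits Adh1 in VitA+ cells and Cyp2e1 in VitA+ chow, where it rested on 42 UMIs.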
